A study of Mus musculus with 6 samples.

Results

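The Pou5f1 (Oct4) locus was taken as the interval chr17:35625000-35665000 of the mm9 mouse genome, and every deposited peak that overlapped it by at least 1 bp was included. This gave 28 peaks of the 70533 in the 5 lists: 5 of 16400 for Tgif1, 7 of 19129 for Tgif2, 5 of 16506 for Hdac1, 9 of 17272 for Nanog and 2 of 1226 for Smad3. The peaks came from chromatin immunoprecipitation and sequencing (ChIP-seq) in mouse embryonic stem cells of the J1 line, all carrying the biotin ligase BirA and all cultured in serum with leukemia inhibitory factor. Antibodies to the native proteins were used for Tgif1, Hdac1 and Smad3, and streptavidin beads, which capture biotin, for Nanog and Tgif2. Factor and capture method therefore cannot be told apart in comparisons between these groups. Each factor had 1 library, so no value below has a replicate error and no difference was tested against the spread between replicates. Where 2 sites of the same library are set side by side with an interval of their ratio, that interval compares tag counts within that library and covers counting error only. The mock library from BirA cells, the sixth sample, was not analysed here. Peak lists carry no expression values, so the labelled cell type could not be checked against marker genes.

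Pou5f1 encodes Oct4, a POU-domain transcription factor without which embryonic stem cells lose pluripotency. Its transcription is controlled by a proximal promoter and by a pair of upstream enhancers. The distal enhancer lies farther from the gene and drives expression in embryonic stem cells and germ cells, whereas the proximal enhancer lies nearer and is used in the epiblast. Nanog is a homeodomain factor of the same pluripotency network, and Smad3 is a transcription factor that enters the nucleus when TGF-beta, Activin or Nodal receptors are active. Tgif1 and its paralog Tgif2 are homeodomain corepressors that bind Smad proteins, and Hdac1 is a histone deacetylase found in several corepressor complexes. The study asked how Tgif1 relates to the core factors of embryonic stem cells, of which Oct4 is one.

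Positions are given relative to a Pou5f1 start site placed near 35643000 in mm9, with negative values upstream, so every distance carries the uncertainty of that rounded position. The gene is on the plus strand. In the RefSeq annotation of GRCm38.p6 the protein-coding genes next to it are H2-Q10 on the upstream side and Tcf19, followed by Cchcr1, on the downstream side. The limits of the enhancers and of these genes in mm9 were not used here, so sites are called by distance and not by name. Whether the sites far downstream lie at Pou5f1, Tcf19 or Cchcr1 was not determined. Peaks called Pou5f1 peaks are therefore peaks of the interval, not peaks assigned to the gene.

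Nanog, Tgif1 and Tgif2 each had a summit within the 250 bases before this start site, at -67, -63 and -145 bp. The RefSeq sequence of those 250 bases is shown because the distances place these summits there, although the rounded mm9 start was not aligned to this sequence. It is chr17:35505782-35506031 of GRCm38.p6, plus strand, 5′ to 3′, and capitals mark the motif matches described next.
Pou5f1 promoter: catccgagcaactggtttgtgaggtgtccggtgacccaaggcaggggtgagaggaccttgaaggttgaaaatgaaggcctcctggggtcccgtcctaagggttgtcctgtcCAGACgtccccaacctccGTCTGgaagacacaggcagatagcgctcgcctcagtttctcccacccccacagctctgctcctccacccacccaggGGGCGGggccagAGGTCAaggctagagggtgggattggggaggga

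In that stretch 5 motifs were searched on both strands, with no overlap among the matches. The Smad box CAGAC occurred 2 times, its leftmost bases at -139 for the plus-strand match and at -121 for the minus-strand match, and 42.2% of 32851 RefSeq promoter windows of the same length held it at least 1 time. The share with at least 2 matches is not given here. By the rounded distances, the Smad3 peak nearest the start ended at -469 bp, outside this stretch. The Sp-factor GC box GGGCGG began at -45 and was held by 32.7% of promoters. The nuclear receptor element AGGTCA began at -33 and was held by 14.0%. The Tgif core TGTCA had no match here and was held by 40.0% of promoters, and the octamer ATGCAAAT had none and was held by 1.6%. A match is a string of letters and not evidence of binding, and no match speaks only of these 250 bases.

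The peaks formed 9 merged regions, in which peaks that overlapped by at least 1 bp were joined. The largest, chr17:35640568-35644374, ran from -2432 to 1374 bp, was 3806 bp wide and contained 12 of the 28 peaks. It carried all 5 factors, with 4 Tgif2 peaks and 2 each of Tgif1, Hdac1, Nanog and Smad3. Downstream of it, chr17:35645236-35647656 held 1 peak each of Tgif1, Tgif2, Hdac1 and Nanog. Farther downstream, chr17:35652368-35654701 held 2 Tgif1 peaks, 1 Tgif2 and 1 Hdac1 peak, and neither Nanog nor Smad3. On the upstream side 4 regions held Nanog alone, chr17:35624810-35625535 held Nanog with Tgif2, and chr17:35627180-35627984 held Nanog with Hdac1.

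**Figure D1:**
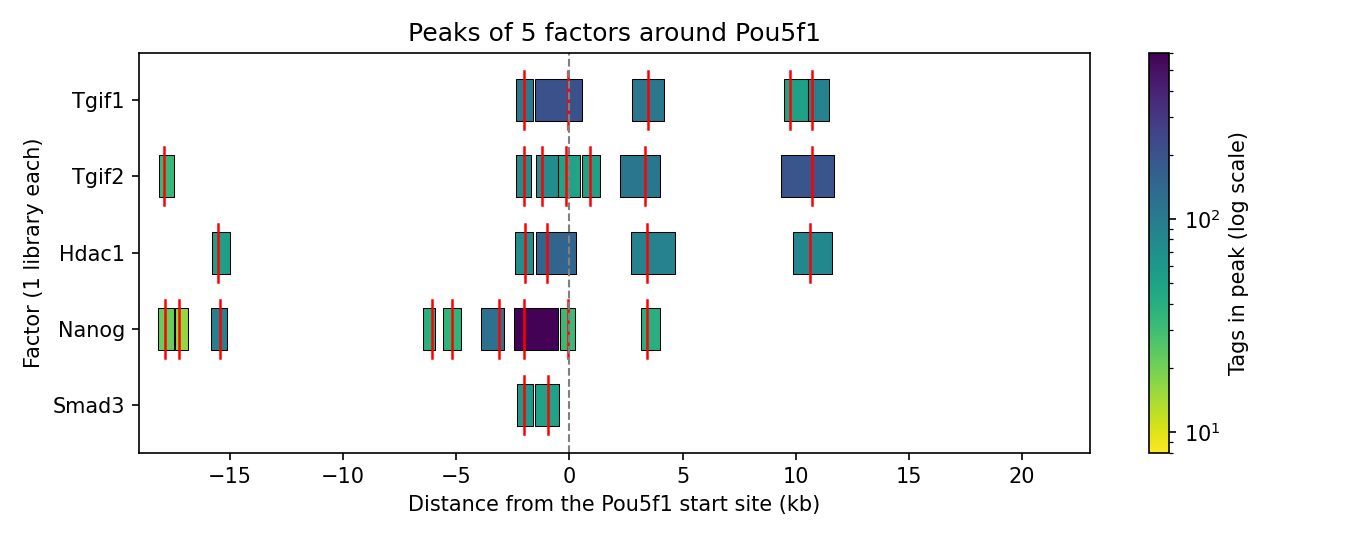
Peaks of each factor (rows, 1 library each) by distance in kb from the Pou5f1 start site (dashed line). Bars span the peaks, red ticks mark summits and colour gives the tags per peak on a log scale. All 5 rows have bars near the start, whereas the bars from -6.08 to -3.1 kb are Nanog alone.

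All 5 factors had a summit at about -2.0 kb, and the summits lay within 28 bp of each other. The Nanog summit was at -2007 bp, Tgif2 at -2000, Smad3 at -1999, Tgif1 at -1993 and Hdac1 at -1979. The Tgif2 and Smad3 summits were 1 bp apart and the Nanog and Hdac1 summits 28 bp apart. Across the whole lists, 666 Smad3 peaks overlapped all 4 other factors. For these, the span of the Smad3 summit and the nearest summit of each other factor had a median of 137.5 bp, and in 15 (2.25%) it was as narrow as at this site. For the other Smad3 peak of the locus, with its summit at -933 bp, the span was 1138 bp, and 644 of the 666 (96.7%) were as narrow or narrower.

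At the -2.0 kb site Nanog had its strongest peak of the locus, chr17:35640568-35642499, with 586 tags (sequence tags counted in the peak, exact 95% Poisson interval 540 to 635) and 118-fold enrichment. The intervals cover counting error only. Fold is taken to be the authors' ratio of a peak to its background, because the lists do not name their columns. Tgif1 had 103 tags (84.1 to 125) and 21.7-fold enrichment there, in chr17:35640644-35641396. Tgif2 had 72 tags (56.3 to 90.7) and 9.69-fold enrichment in chr17:35640632-35641301.

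Hdac1 also had 72 tags at this site, with 12.2-fold enrichment, in chr17:35640583-35641412. Smad3 had 57 tags (43.2 to 73.9) and 12.7-fold enrichment in chr17:35640685-35641386. Tag numbers of different libraries cannot be set against each other here because their depth is not known. Within its own list, the Nanog peak ranked 11 of 17272 by tags and 498 by fold. The Smad3 peak ranked 141 of 1226 by tags and 250 by fold, the Tgif1 peak 2109 and 3203 of 16400, the Hdac1 peak 2979 and 6266 of 16506, and the Tgif2 peak 6342 and 15059 of 19129. The Nanog peak was therefore near the top of its list. The Tgif2 peak at the same place was above the middle by tags and in the lower part by fold. By tags per kb of peak width, however, that Tgif2 peak ranked 971 of 19129. On this measure Tgif1 ranked 209 of 16400 and Hdac1 203 of 16506 at the -2.0 kb site. Nanog ranked 95 of 17272 there and Smad3 63 of 1226. The standing of the Tgif2 peak thus depended on the measure.

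The Nanog peak was 1931 bp wide, running from -2432 to -501 bp, against a median Nanog peak of 633 bp. It spanned the place where Hdac1 and Smad3 had a further summit, and the Nanog list gave no separate summit there. Of the 11 Nanog peaks with at least 586 tags, this peak included, 11 overlapped Tgif1, 11 Tgif2, 11 Hdac1 and 10 Smad3, and 10 overlapped all 4. Their median width was 2178 bp. Overlap with all 4 factors held for 3.9% of all Nanog peaks, so it was common at the strongest Nanog peaks and not particular to Pou5f1.

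Between the -2.0 kb site and the start, the factors were less closely aligned. The Hdac1 peak chr17:35641525-35643302 had its summit at -978 bp and the Smad3 peak chr17:35641487-35642531 at -933 bp, 45 bp apart. The Tgif2 peak chr17:35641520-35642482 had its summit at -1201 bp. Hdac1 had 150 tags (127 to 176) with 15.98-fold enrichment, Smad3 50 tags (37.1 to 65.9) with 11.5-fold and Tgif2 74 tags (58.1 to 92.9) with 13.6-fold.

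This was the strongest Hdac1 peak of the locus, ranked 194 of 16506 by tags and 3157 by fold. For Smad3 the 57 tags at -2.0 kb were 1.14 times the 50 tags here, with an exact 95% interval of 0.766 to 1.7, so counting error alone spans equality. The Smad3 list held no other peak near Pou5f1. The nearest Smad3 peaks on the chromosome lay 1887552 bp before and 1453636 bp after the interval.

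At the start site, the Tgif1 peak chr17:35641494-35643547 had its summit at -63 bp, 4 bp from the Nanog summit at -67 bp and 82 bp from the Tgif2 summit at -145 bp. Neither Hdac1 nor Smad3 had a summit within 200 bp, although the Hdac1 peak with its summit at -978 bp reached across the start to 302 bp. Tgif1 had 207 tags (180 to 237) and 26.9-fold enrichment, its strongest peak of the locus by both values. It ranked 215 of 16400 by tags and 1864 by fold. The peak was 2053 bp wide against a median of 933 bp, and it covered the region of the -978 and -933 bp summits too.

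Nanog at the start, chr17:35642593-35643228, had 32 tags (21.9 to 45.2) with 18.8-fold enrichment, far below its 586 tags at -2.0 kb. Tgif2 there, chr17:35642519-35643488, had 49 tags (36.3 to 64.8) with 8.66-fold enrichment, its lowest fold of the locus. A further Tgif2 peak, chr17:35643541-35644374, had its summit at 920 bp with 51 tags and 15.9-fold enrichment. No other factor had a summit within 200 bp of it, and it touched the Tgif1 peak by its edge only. Where Tgif1 had a single wide peak from -1506 to 547 bp, the Tgif2 list had separate peaks from -1480 to -518 bp and from -481 to 488 bp. Tgif1 was captured by antibody and Tgif2 by streptavidin, so paralog and capture method cannot be told apart in this contrast.

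**Figure D2:**
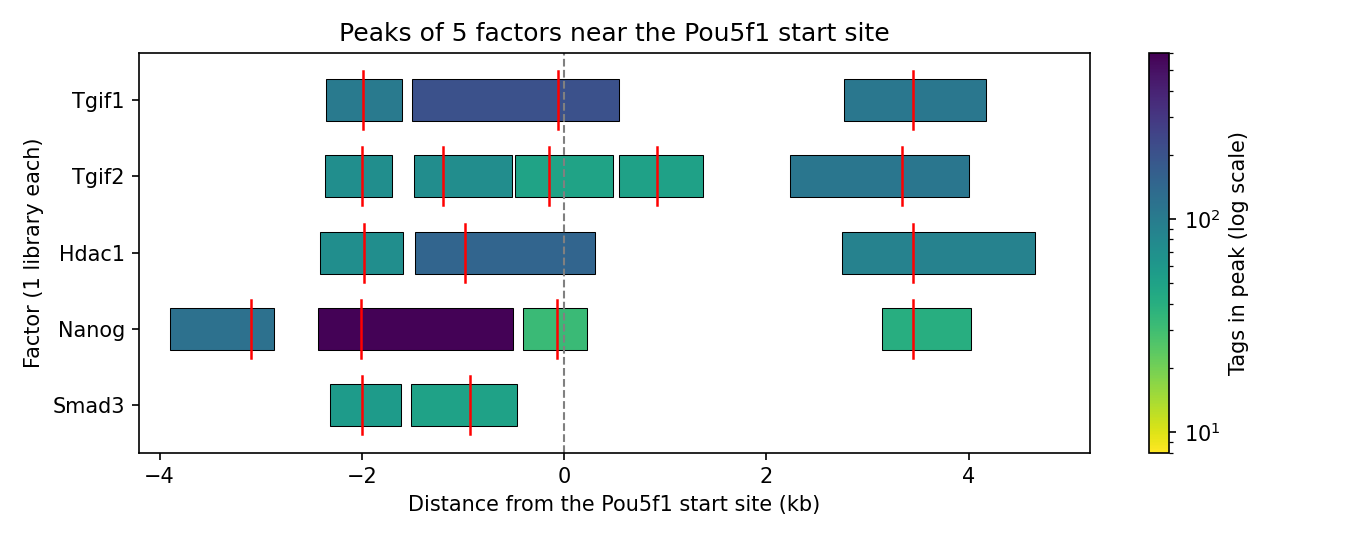
Enlarged map of the peaks near the Pou5f1 start site, by distance in kb, with bars, red summit ticks and colours for tags per peak on a log scale. The 5 summits at -2.0 kb line up within 28 bp, whereas those nearer the start are spread from -1201 to 920 bp.

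A site at about 3.45 kb carried Tgif1, Hdac1, Nanog and Tgif2, and no Smad3. The Tgif1 summit was at 3454 bp, Nanog at 3451 and Hdac1 at 3449, a spread of 5 bp, and the Tgif2 summit at 3343 bp was 111 bp from that of Tgif1. Tgif1 had 109 tags (89.5 to 131) with 14.8-fold enrichment in chr17:35645765-35647171. Tgif2 had 111 tags (91.3 to 134) with 13.6-fold in chr17:35645236-35647008. These were the next highest tag numbers of both paralogs at the locus.

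Hdac1 at 3.45 kb had 89 tags (71.5 to 110) with 8.86-fold enrichment in chr17:35645746-35647656, and Nanog had 40 tags (28.6 to 54.5) with 7.95-fold in chr17:35646149-35647022. The Nanog fold was its lowest at the locus, with 2.73% of the Nanog list below it, although 65.3% of the list had fewer tags. The Hdac1 peak ranked 1494 of 16506 by tags and 11181 by fold. For both factors the standing of this site depended on which of the 2 values was read.

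The Tgif factors and Hdac1 met again at about 10.7 kb, without Nanog or Smad3. The Tgif2 summit was at 10734 bp, Tgif1 at 10718 and Hdac1 at 10653, a spread of 81 bp. This was the strongest Tgif2 peak of the locus, chr17:35652368-35654701, with 197 tags (170 to 227) and 26.5-fold enrichment, ranked 357 of 19129 by tags and 2841 by fold. It was 2333 bp wide against a median of 943 bp, and it covered 2 Tgif1 peaks.

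The stronger of those Tgif1 peaks, chr17:35653557-35654463, had 88 tags (70.6 to 108) and 19.3-fold enrichment. The weaker, chr17:35652466-35653536, had its summit at 9743 bp with 51 tags and 9.7-fold enrichment. Hdac1 had 80 tags (63.4 to 99.6) with 5.05-fold in chr17:35652902-35654621. That Hdac1 fold was among the lowest of its list, with 0.927% of Hdac1 peaks below it, whereas 86.5% had fewer tags.

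Upstream of the -2.0 kb site the locus was occupied mainly by Nanog. The Nanog peaks with summits at -6084, -5175 and -3100 bp had 39, 36 and 122 tags and 16-, 24.3- and 20.4-fold enrichment, and no other factor overlapped them. Over the whole Nanog list, Tgif1 overlapped 35.8% of peaks, Tgif2 36.7%, Hdac1 45.9% and Smad3 6.43%. A Nanog peak without any given 1 of these factors was therefore common, and such peaks are not particular to this flank. At -15.5 kb the Nanog peak chr17:35627180-35627878 had 92 tags (74.2 to 113) with 32.0-fold enrichment. Hdac1 joined it with 53 tags and 8.21-fold enrichment in chr17:35627214-35627984, the summits 65 bp apart.

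At the upstream edge Nanog had 22 tags and 10.4-fold enrichment in chr17:35624810-35625520, and Tgif2 had 33 tags and 11.7-fold in chr17:35624875-35625535, with summits 29 bp apart. A further Nanog peak at -17229 bp had 16 tags and 10.7-fold enrichment. The 33 and the 16 tags were the smallest numbers that the Tgif2 and Nanog lists contain, so these peaks were at the limit of what was called. No peak of any list lay between 11701 bp and the downstream edge of the interval.

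Just outside the upstream edge, Hdac1 had a peak of 39 tags with a gap of 557 bp to the interval and Nanog a peak of 28 tags with a gap of 634 bp. Tgif2 and Tgif1 followed with 65 and 58 tags, 1710 and 1915 bp away. On the downstream side the nearest were a Tgif1 peak of 46 tags, 4147 bp away, and Nanog and Tgif2 peaks of 28 and 43 tags, 4190 and 4278 bp away.

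**Figure D3:**
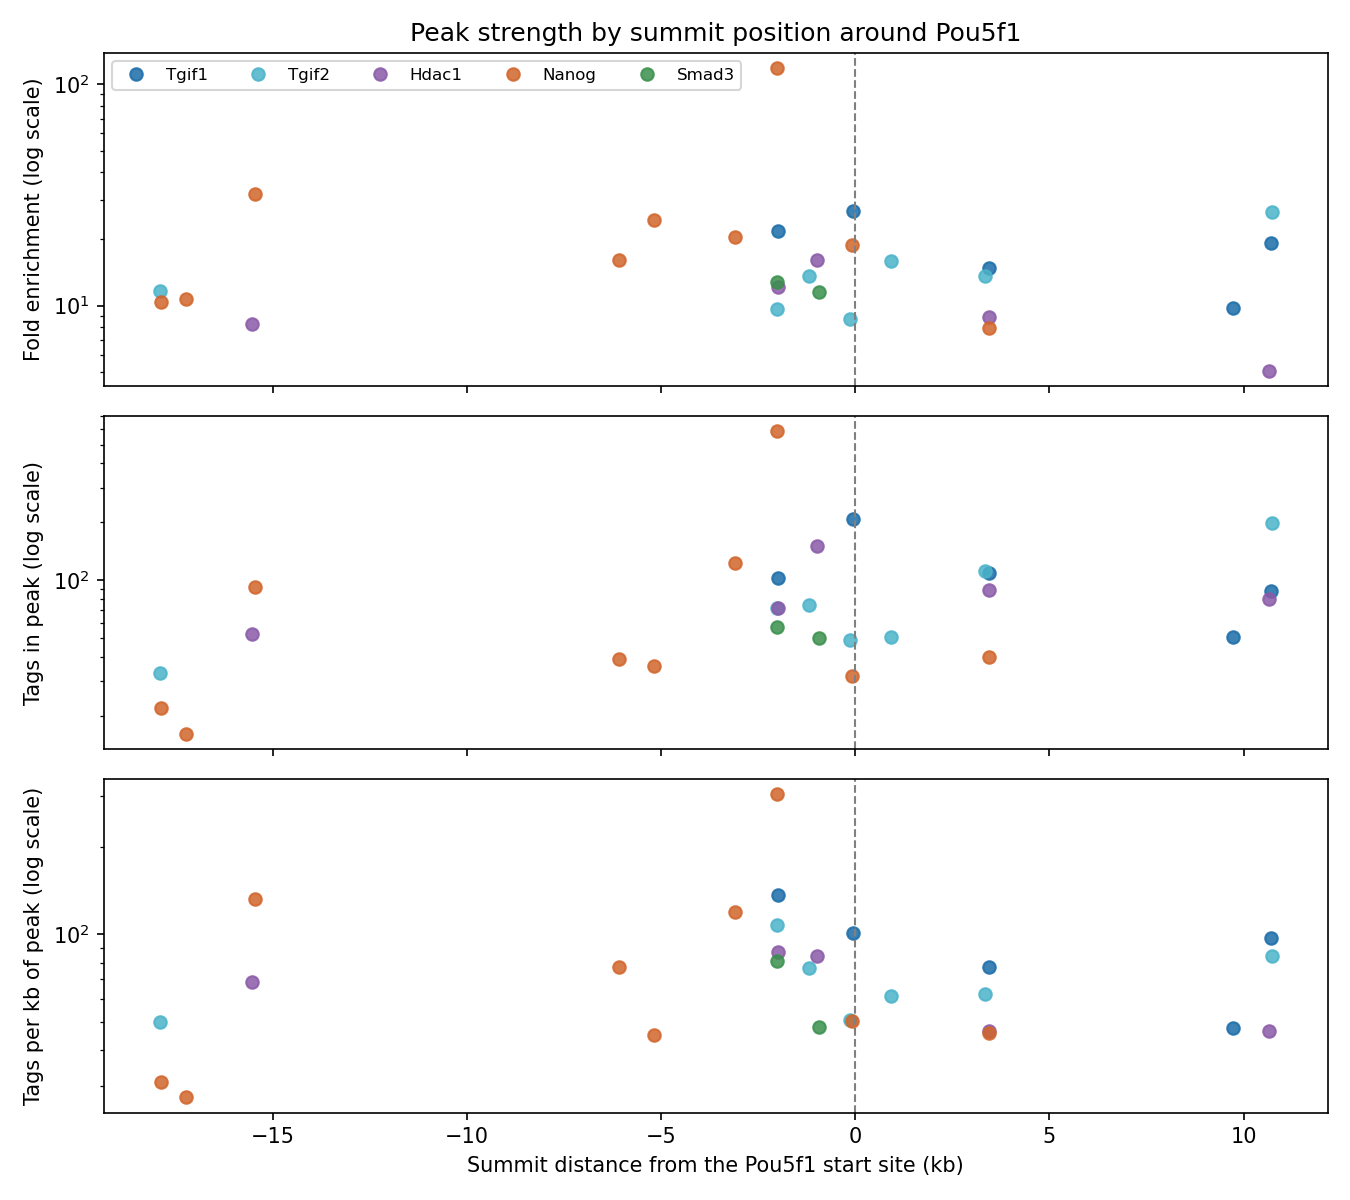
Fold enrichment, tags per peak and tags per kb of peak (all log scales) of the 28 peaks against summit distance in kb from the Pou5f1 start site, coloured by factor. By tags per kb the -2.0 kb peak is the highest of every factor, whereas by fold and by tags that holds for Nanog and Smad3 and not for Tgif1, Tgif2 and Hdac1.

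Which site led depended on the measure for Tgif1, Tgif2 and Hdac1. By fold and by tags, Tgif1 led at the start site, Tgif2 at 10.7 kb, Hdac1 at -978 bp, and Nanog and Smad3 at -2.0 kb, so the leading summits of the 5 factors spanned 12741 bp. By tags per kb of peak width, a measure that wide peaks lower, every factor led at -2.0 kb and the leading summits spanned 28 bp. At -2.0 kb the Tgif1, Tgif2 and Hdac1 peaks were 752, 669 and 829 bp wide. Where these factors led by tags, the widths were 2053, 2333 and 1777 bp. Smad3 was 701 bp wide at -2.0 kb and 1044 bp at -933 bp. For these factors the lead by tags per kb therefore came with narrower called peaks. The Nanog peak, by contrast, was the widest of its factor at the locus, 1931 bp, at -2.0 kb. Nanog reached 303 tags per kb there against 132 at its next densest peak, a ratio of 2.3 (exact 95% interval 1.85 to 2.9).

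Smad3 had 81.3 tags per kb at -2.0 kb against 47.9 at -933 bp, a ratio of 1.7 (1.14 to 2.53). Tgif1 had 137 tags per kb against 101 at the start site, a ratio of 1.36 (1.06 to 1.73). For Tgif2 the values were 108 and 84.4, a ratio of 1.27 (0.959 to 1.68), and for Hdac1 86.9 and 84.4, a ratio of 1.03 (0.766 to 1.37). The last 2 intervals include equality, so the lead of the -2.0 kb site for Tgif2 and Hdac1 was within counting error. For every factor the densest peak was set over the next, so no ratio can fall below equality. The intervals cover neither that choice nor the called widths. For Smad3 the tags themselves, 57 and 50, gave a ratio of 1.14 (0.766 to 1.7). Across the genome, in tiles of 40 kb, 82 tiles had at least 2 summits of every factor. In 6 of them (7.32%) the densest peaks of the 5 factors had summits within 200 bp, against 7 (8.54%) by tags and 7 (8.54%) by fold. The tile with the Pou5f1 start site is among the 6.

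Set within their lists, the Pou5f1 peaks as a set stood high by tags but not by fold. Of the 28 peaks, 22 had at least the median tags of their list and 13 at least the median fold. A median splits its list about evenly, so 13 of 28 by fold was not an excess. At or above the 90th percentile of tags were 6 peaks, against 10.1% of peaks in all lists, and at or above that of fold was 1 peak, against 10.0%. The 6 were the Nanog peaks at -2.0 and -3.1 kb, the Hdac1 peaks at -978 bp and 3.45 kb, the Tgif1 peak at the start and the Tgif2 peak at 10.7 kb.

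The 1 peak by fold was Nanog at -2.0 kb. The median peak of a list, for comparison, had 54 tags and 13.3-fold enrichment for Tgif1, 57 and 14.1 for Tgif2, 47 and 10.7 for Hdac1, 30 and 23.7 for Nanog, and 26 and 9.57 for Smad3. The 9 Nanog peaks held 985 tags together, 0.12% of all tags in Nanog peaks, and 59.5% of these 985 were in the -2.0 kb peak. The leading peak held 37.1% of the 558 Tgif1 tags, 33.6% of the 587 Tgif2 tags and 33.8% of the 444 Hdac1 tags at the locus, so those were spread more evenly over their sites.

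**Figure D4:**
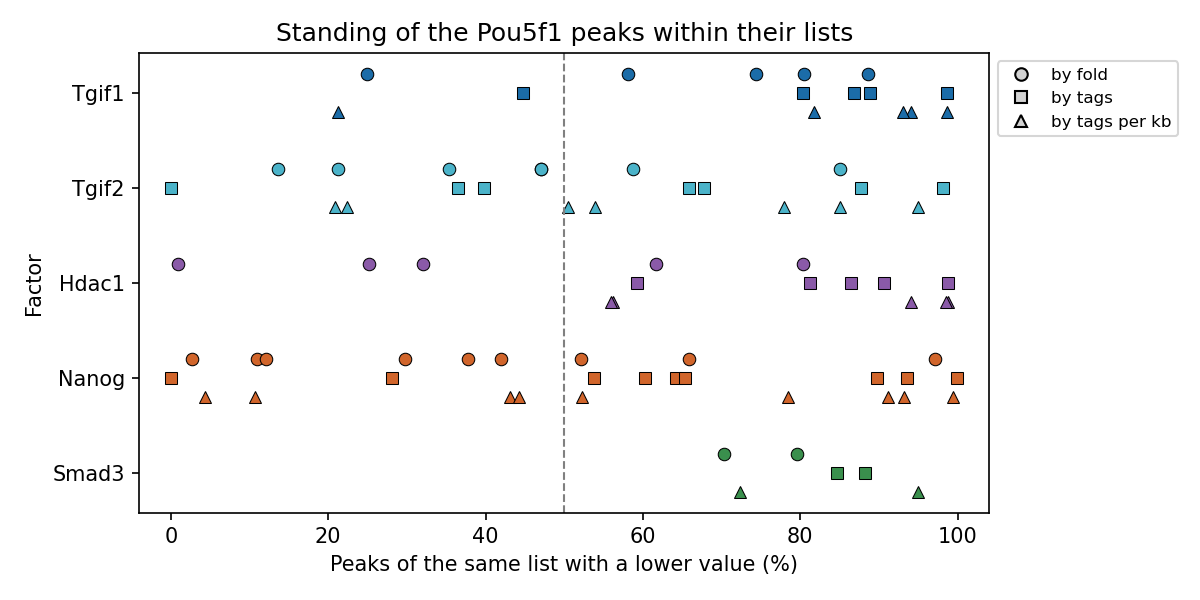
Share of peaks of the same list with a lower value (%) for each Pou5f1 peak, by factor. Circles rank by fold, squares by tags and triangles by tags per kb, and the dashed line marks the middle of the list. Of the 28 peaks, 22 reach the median by tags and 13, no more than an even split, by fold.

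Overlap with all other factors was frequent at the locus. Of the 28 peaks, 10 overlapped all 4 other factors, against 4.74% of peaks in all lists. The 10 lay in a single merged region, so they are 1 cluster counted from each list and not separate places. By list these were 2 of 5 Tgif1 peaks (4.04% in the list), 3 of 7 Tgif2 (3.51%), 2 of 5 Hdac1 (4.05%), 1 of 9 Nanog (3.9%) and 2 of 2 Smad3 peaks (54.3%). Among the 3 Tgif2 peaks, that with its summit at -145 bp overlapped Smad3 by its edge only. No other factor overlapped 4 of the 28, against 20.3% over all lists, and the 4 were all among the 9 Nanog peaks. The 20.3% pools all lists and the share for the Nanog list alone is not given here. The comparison is therefore not like for like. Tgif2 overlapped 5 of 5 Tgif1 peaks (79.2% in the list) and Hdac1 5 of 5 (66.1%). Nanog overlapped 3 of 5 Tgif1 peaks (36.7%) and Smad3 2 of 5 (5.04%).

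In the other direction Tgif1 overlapped 3 of 9 Nanog peaks (35.8% in the list), Tgif2 4 (36.7%), Hdac1 4 (45.9%) and Smad3 1 (6.43%). These counts are close to the shares of the whole Nanog list. Tgif1 overlapped 4 of 5 Hdac1 peaks (64.6%), Tgif2 4 (68.4%), Nanog 4 (45.6%) and Smad3 2 (5.9%). Tgif1 overlapped 6 of 7 Tgif2 peaks (68.0%), Hdac1 5 (59.9%), Nanog 5 (32.2%) and Smad3 3 (4.08%). Tgif1, Tgif2, Hdac1 and Nanog each overlapped 2 of 2 Smad3 peaks, against 67.5%, 63.7%, 81.1% and 90.3% of the Smad3 list.

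Few other places of this size held as many peaks. The genome was divided into 40-kb tiles, the width of the interval, and 18084 tiles held a summit of at least 1 factor. At least 9 Nanog summits were found in 12 tiles (0.0664%), at least 7 Tgif2 summits in 72 (0.398%) and at least 2 Smad3 summits in 115 (0.636%). At least 5 summits were found in 220 tiles (1.22%) for Hdac1 and in 262 (1.45%) for Tgif1. The sum of 28 summits was reached by 25 tiles (0.138%), and 4 tiles (0.0221%) had at least as many as the Pou5f1 interval for every factor.

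A summit of all 5 factors fell in 743 tiles (4.11%). The interval was placed around a gene known to be bound, whereas tiles were placed on a fixed grid that can divide a cluster of peaks, so these shares describe the locus and test nothing. Among merged regions of the genome, 13 of 33152 had at least 12 peaks, and the highest number in any was 16. At least 4 Tgif2 peaks were in 3 regions, at least 2 Smad3 peaks in 29, and at least 2 peaks of every factor in 6, the Pou5f1 region included in each. The Tgif2 peak with its summit at 920 bp joins the Pou5f1 region by its edge only. Its 12 peaks, 4 Tgif2 peaks and 3806 bp therefore depend on joining at 1 bp. The 665 regions with all 5 factors had a median of 5 peaks and a median width of 1584 bp, and 37 (5.56%) were at least 3806 bp wide.

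**Figure D5:**
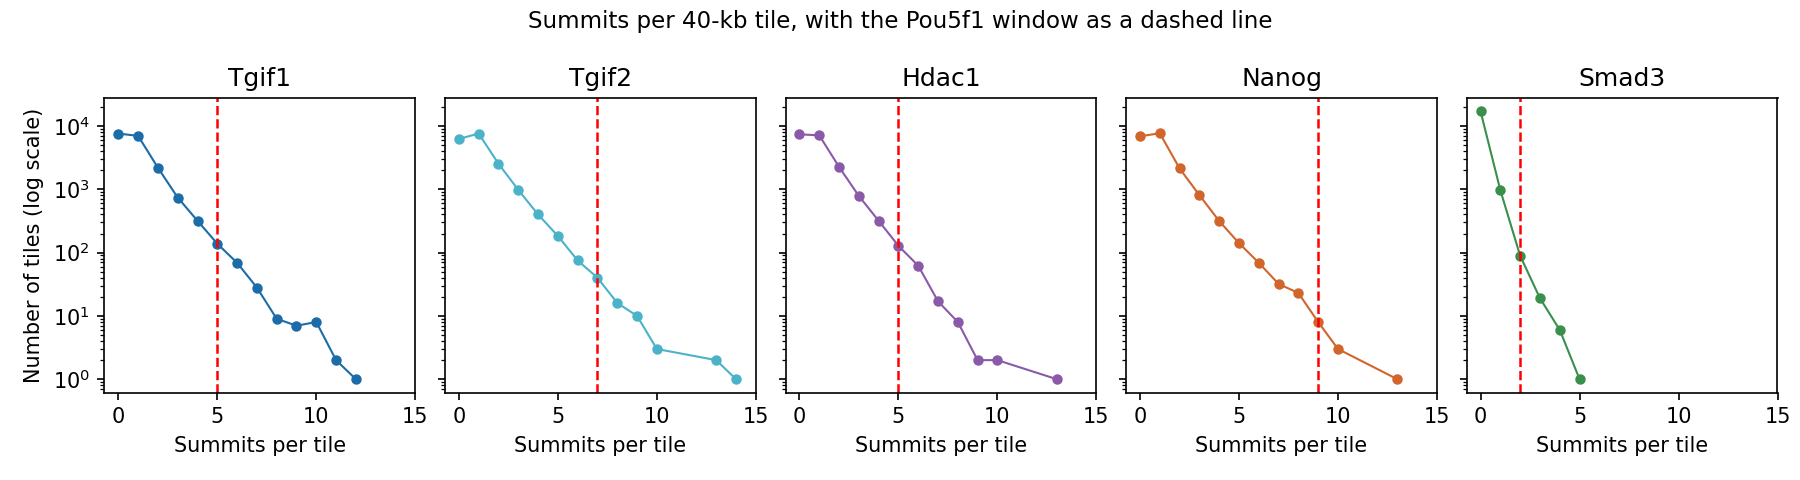
Number of 40-kb tiles (log scale) by the number of summits per tile for each factor, among 18084 tiles with at least 1 summit of any factor. The dashed line marks the count in the Pou5f1 interval, which 12 tiles reach for Nanog and 262 for Tgif1.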

How the data were processed

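The 5 deposited peak lists, 1 per factor, were used as they stand. Per the submitters' processing notes, peaks are on mm9 and the tools were MACS and BWA 0.5.9-r16; settings, threshold and control library are not given in the sources used here. The lists have no header, and their fold and tag columns were identified from a supplied column order and from the values. The column read as fold is taken to be a ratio of peak to background by the authors' peak caller. The column read as tags is a whole number per peak. Summits are the authors' positions, and it is not stated whether positions count from 0 or 1, which can shift them by 1 bp. How precisely a summit was placed by the peak caller is not known and was not assessed. Distances of a few bp between summits are therefore distances between called positions only. Library depth is not known.

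Ranks, overlaps by at least 1 bp, merged regions, sites of summits within 200 bp and 40-kb tiles were computed with Python 3.11.15, NumPy 2.4.6, pandas 2.3.3 and SciPy 1.17.1, and drawn with matplotlib 3.10.9. Intervals are exact Poisson intervals for tags and exact conditional binomial intervals for ratios within a library, at the 95% level. Overlap functions were tested on simulated data, and 0 of 20 pair counts differed from bedtools 2.31.1. Each peak in the interval was described. The interval, lists and measures were chosen with earlier results of these data known, and the tags per kb comparison of sites, the summit spans and the counts at strong peaks were chosen after the values were seen. The promoter is from RefSeq GRCm38.p6, whose coordinates were not converted to mm9.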

Additional observations from a re-analysis of the deposited data

How the results depend on the processing

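No paired analysis was possible because each factor had 1 library, and for the same reason no replicate could be left out. Keeping peaks at or above the median fold left 2 of 7 Tgif2, 2 of 5 Hdac1 and 3 of 9 Nanog peaks at the locus, and keeping those at or above the median tags left 4 Tgif2 peaks. The strongest Pou5f1 peak was picked anew for each measure. For Tgif1, Tgif2 and Hdac1 the strongest by tags per kb was a different peak from the strongest by fold and by tags. The part of each list below the strongest peak was 88.6% by fold, 98.7% by tags and 98.7% by tags per kb for Tgif1. For Tgif2 it was 85.1%, 98.1% and 94.9%, for Hdac1 80.4%, 98.8% and 98.8%, for Nanog 97.1%, 99.9% and 99.4%, and for Smad3 79.6%, 88.2% and 94.9%. Joining summits within 200 bp gave 14 sites instead of 9 merged regions, and a single site with all 5 factors under each of the joining rules. Of 46 alternative values, 31 stayed within their limits and 15 did not. Depth is unknown, so a factor without a peak at a site, such as Smad3 at 3.45 kb, was not called there and cannot be said to be absent.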
